A study of Macrobrachium rosenbergii with 32 samples.

Results

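A cut by Cas9 can be followed by reads that have lost bases and gained others at the same site, and the alleles described here are those with both a deletion and an insertion, called combined alleles below. They were the alleles of the 20-nt analysis window in which at least 1 base was counted as deleted and at least 1 as inserted. The tables of all 32 libraries listed 166 such alleles of 11882, with 1875 of 1049713 aligned reads. Of these, 165 alleles with 1874 reads came from the positive controls and 1 allele with 1 read from a negative control. After the place, the lost bases and the gained bases were compared, with substitutions elsewhere ignored, the 165 listed alleles came to 71 distinct combined alleles.

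The cells were embryonic primary cell cultures of the giant freshwater prawn Macrobrachium rosenbergii, made from embryos 10 to 14 days old, and DNA was taken 72 h after nucleofection. There were 16 nucleofection experiments, each with the eggs of a single female. In each, the PositiveControl library came from cells that received the Cas9 protein with the sgRNA for Mr-cofilin, and the NegativeControl library from cells nucleofected in the absence of any sgRNA. Both groups hold a mixture of embryonic cell types, so an allele share is a mean over that mixture. The site was amplified by PCR and sequenced on a MiSeq instrument. No molecular identifiers are described, so read counts are not counts of molecules, and the limits and 95% Wilson intervals given for single libraries cover counting error only.

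Cofilin is a protein that binds and severs actin filaments, and its gene served as the control target of the study. A double-strand break made by Cas9 is mostly repaired by joining the ends, which can remove or add bases. Some breaks are joined at short matching stretches, and a polymerase can then copy nearby bases into the junction, in direct or in inverted orientation. Alleles with lost and gained bases at once are known from such repair in animals. This is general background and was not tested here.

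The gene lies on the minus strand of scaffold 867 of the annotated genome, and the positions are those of the study's annotation of the region. The sgRNA is on the plus strand at 8770 to 8789, and the 40 nt shown in the tables run from 8767 to 8806, with the cut-site between 8786 and 8787. The target is inside the 3′ UTR that the Maker pipeline predicted from 5712 to 8862, and 79 nt separate it from the last exon of the curated gene model, at 8869 to 8931. Below, bases are numbered along the gene away from the cut-site, 1 being the first base on the right and −1 the first on the left.

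The sequences that carry most of the combined reads, and the reference they are compared with, are given here in the orientation of the gene, 5′ to 3′. Each shows 30 nt, of which the first 10 lie left of the cut-site. Capitals in an allele mark the longest stretch over the gained bases that is the reverse complement of a stretch of the 40-nt reference, and capitals in the reference mark positions 1 to 7. The sgRNA is given first, in its own orientation. Alleles are numbered by their mean share over the positive controls, and the inverted form has no deletion or insertion and is not a combined allele.
sgRNA: catatgactagctggccaca
reference: accgccctgtGGCCAGCtagtcatatgtgg
inverted form: accgccctgtGCTGGCCtagtcatatgtgg
allele 1: accgccctgtgTGGCCtagtcatatgtggg
allele 2: accgccctgtCTGGCCtagtcatatgtggg
allele 13: accgccctgtGCTGGCCctagtcatatgtg
allele 3: accgccctgtgGACTAGCgggccacaatca
allele 4: accgccctgtgGACTAGCTGtgggccacaa
allele 5: accgccctgtgTGACTAGCTGGgccacaat
allele 6: accgccctgtgGACTAGCTGGCCACAatca
allele 8: accgccctgtgATGACTAGCTGGCCACAat
allele 9: accgccctgtgATATGACTAGCTGGCCACA
allele 10: accgccctgtTGACTAGCTGGCCACAatca
In allele 1 the 5 bases from position 2 were replaced by 4 others, and in allele 2 the 6 bases from position 1 were replaced by 5 others. Alleles 3 to 6 and 8 to 10 lost 13 to 19 bases, counted as replaced bases, and held 6 to 12 gained bases in their place. In alleles 6, 8, 9 and 10 the last 7 capitals are reference bases that stayed in place, at positions 20 to 26, which are the reverse complement of the bases at −3 to 4.

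Positive controls had 17505 to 58396 aligned reads and negative controls 17475 to 54340. Reads with any deletion or insertion made up 21.6% to 54.9% of the positive controls. In the negative controls they made up 0.00948% to 1.67%, and the highest of these, 535 of 32096 reads, was the negative control of experiment 15. In 4 experiments, numbers 4 to 7, the tables show the opposite strand, and these were turned to the strand of the gene.

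Combined alleles made up 0.339% ± 0.139 of the aligned reads in positive controls, against 0.000195% ± 0.000779 in negative controls (SD, n = 16 libraries each). The difference was 0.339 percentage points (two-sided permutation test with 100000 resamples, p = 2e-05, the smallest p they can give, adjusted p = 5.09e-05 over 5 tests by the Benjamini-Hochberg method). The share was higher in the positive control in 16 of 16 experiments, though in experiment 8 this rests on 1 read against 0. In forward orientation the positive controls had 0.343% ± 0.151 (SD, n = 12; permutation test against the negative controls, p = 2e-05). In reverse orientation they had 0.328% ± 0.112 (SD, n = 4; p = 0.0286 by an exact permutation test, which with 4 against 4 libraries can go no lower).

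The positive controls spread from 0.00426% to 0.595%, with a median of 0.353%. Experiment 3 was highest, with 222 of 37293 reads (95% Wilson interval 0.522% to 0.679%), followed by experiment 16 with 0.463% and experiment 2 with 0.455%. Experiments 1 and 5 were lower, with 0.170% and 0.186%, and their intervals of 0.134% to 0.216% and 0.149% to 0.233% did not overlap that of experiment 3. The other 10 positive controls apart from experiment 8 lay between 0.290% and 0.435%. The spread between experiments was thus larger than the counting error of the libraries at its ends.

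Experiment 8 stood apart. Its positive control had 1 combined read among 23461 (0.00426%, 95% Wilson interval 0.000752% to 0.0241%), although 50.1% of its reads carried a deletion or an insertion. Combined reads were 0.00851% of its reads with a deletion or an insertion, against 0.522% to 1.43% in the other 15 positive controls. Without experiment 8 the positive controls had 0.362% ± 0.110 (SD, n = 15). The interval of this library overlaps the limits of the negative controls, so a level above the background was not detectable in it at this depth.

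Of the negative controls, 15 had 0 combined reads. With 3 reads as the limit that 0 reads allow, their shares could be as high as 0.00552% in the deepest library and 0.0172% in the shallowest. The single combined read of the negative controls was allele 1, in the library of experiment 15 (0.00312%, 95% Wilson interval 0.00055% to 0.0176%), which was also the negative control with the most deletions and insertions. The part of those reads in this result was not tested.

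**Figure D1:**
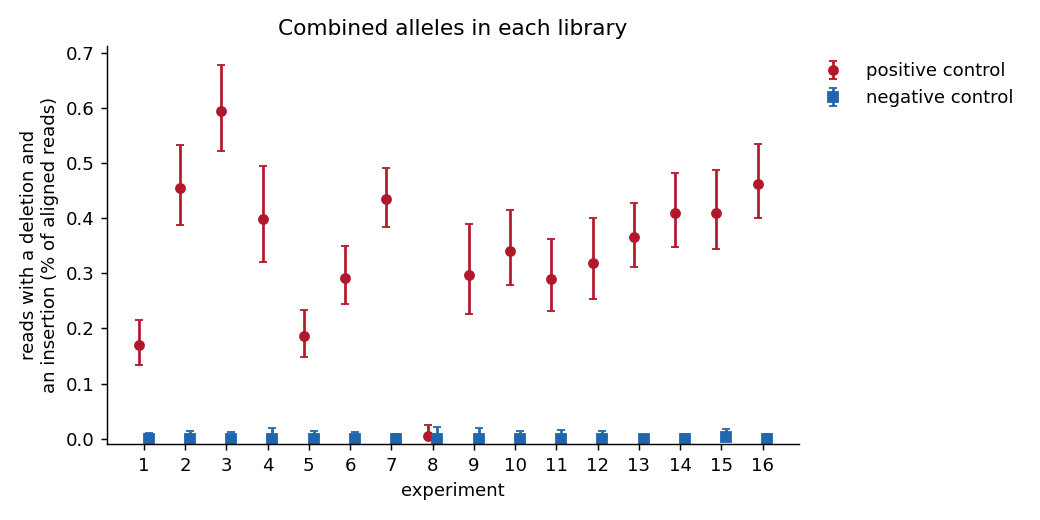
Share of aligned reads with both a deletion and an insertion (y axis, %) in each experiment (x axis), for the positive control (circles) and the negative control (squares). Bars are 95% Wilson intervals of single libraries. The positive controls run from 0.00426% in experiment 8 to 0.595% in experiment 3, and 15 of the 16 negative controls are at 0.

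Allele 1 carried most of the combined reads. It was listed with 2 inserted and 3 deleted bases and had 1431 reads, 76.4% of all combined reads of the positive controls. Its share was 0.118% in experiment 1, 0.324% in experiment 2, 0.346% in experiment 3 and 0.320% in experiment 4. It was 0.107% in experiment 5, 0.239% in experiment 6, 0.375% in experiment 7 and 0 in experiment 8. It was 0.229% in experiment 9, 0.264% in experiment 10, 0.249% in experiment 11 and 0.275% in experiment 12. Among the libraries that held the allele, experiments 5 and 1 were lowest. It was 0.290% in experiment 13, 0.314% in experiment 14, 0.341% in experiment 15 and 0.363% in experiment 16. The mean was 0.260% over the 16 positive controls, and 0.277% ± 0.0805 without experiment 8 (SD, n = 15). The 0 reads of experiment 8 allow a share of up to 0.0128%, which is below the lower end of the interval of every other positive control.

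Allele 2, listed with 2 inserted and 3 deleted bases as well, was the only combined allele found in all 16 positive controls. It had 241 reads, 12.9% of the combined reads, and was found in 0 of the 16 negative controls. Its share was highest in experiment 3, with 0.131% (49 reads), followed by experiment 16 with 0.0737% and experiment 2 with 0.0624%. Its lowest shares were 0.00426% in experiment 8 (1 read), 0.0151% in experiment 11 (4 reads) and 0.0171% in experiment 9 (3 reads). The mean was 0.0432%, and 0.0458% ± 0.0295 without experiment 8 (SD, n = 15). Its presence in all libraries rests on that 1 read of experiment 8.

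The proportion of both alleles differed between libraries beyond counting error. Allele 2 made up 35.8% of the reads of alleles 1 and 2 in experiment 5 (24 against 43 reads, 95% Wilson interval 25.4% to 47.8%) and 27.5% in experiment 3 (49 against 129 reads, 21.5% to 34.5%). In experiment 7 it made up 4.78% (11 against 219 reads, 2.69% to 8.36%), and in experiment 11 5.71% (4 against 66 reads, 2.24% to 13.8%). Experiments 5 and 7 both have tables in reverse orientation, so the orientation of the table does not separate them. The other 11 positive controls with both alleles lay between 6.98% and 24.2%.

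Alleles 1 and 2 resemble an allele without a deletion or an insertion, so it is no combined allele, and it was picked with its values known. In this inverted form, positions 1 to 7 are replaced by their reverse complement. Allele 1 and allele 2 each have 1 base fewer than this form, and allele 13, with 4 reads in 3 positive controls and likewise picked with its values known, has 1 base more. The inverted form had a mean share of 0.301% ± 0.138 in the positive controls (SD, n = 16), was highest in experiment 3 with 0.566%, and had 0 reads in experiment 8. In the negative controls it had 1 read in experiment 12 and 2 reads in experiment 15.

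**Figure D2:**
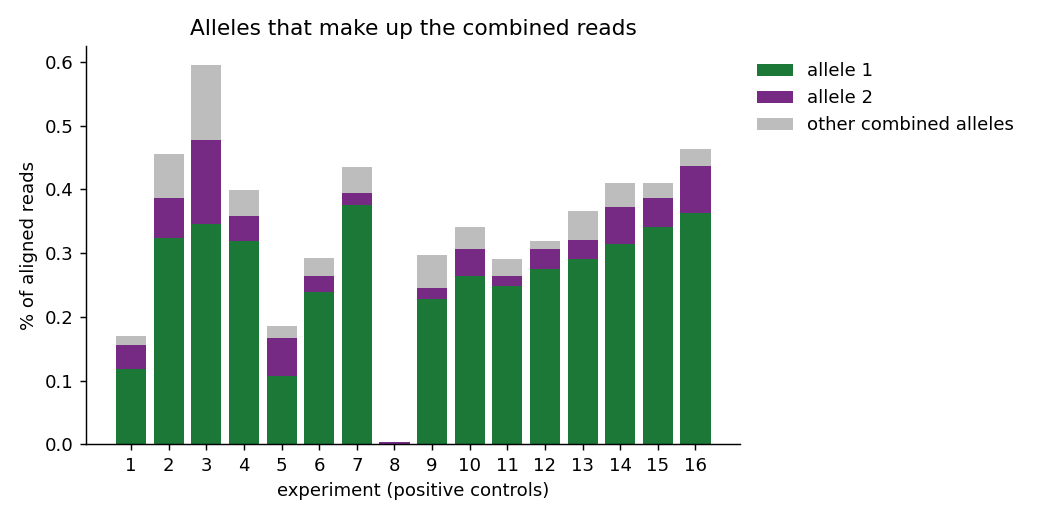
Share of aligned reads (y axis, %) of allele 1, allele 2 and all other combined alleles, stacked, in the positive control of each experiment (x axis). Allele 1 is the largest part in each experiment except 8, where the only read is allele 2. Experiment 3 has the highest bars for allele 2 (0.131%) and the other alleles (0.118%).

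The other 69 combined alleles were rare. They held 202 reads, 10.8% of the combined reads, and none of them had a mean share above 0.00452%. Their summed share of aligned reads was 0.0366% ± 0.0272 (SD, n = 16 positive controls), from 0 in experiment 8 and 0.0131% in experiment 12 to 0.118% in experiment 3. Of the 71 alleles, 53 were found in a single positive control, and 39 had 1 read in all. Alleles found in at least 2 positive controls numbered 18 and held 96.2% of the combined reads. Of these, 12 were found in tables of both orientations.

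After alleles 1 and 2 the most widespread was allele 4, with 25 reads in 8 positive controls, of which experiment 3 had 8 and experiment 7 had 6. Allele 3 had 21 reads in 7 positive controls, 7 of them in experiment 3 and 5 in experiment 9. Allele 6 had 15 reads in 7 positive controls, 7 of them in experiment 5, and it was found in all 4 experiments with reverse tables. Allele 5 had 16 reads in 6 positive controls, with 5 in experiment 3. Allele 8 had 6 reads in 4 positive controls, and alleles 7, 9 and 10 had 5, 8 and 5 reads in 3 positive controls each. Apart from alleles 1 and 2, no combined allele was found in more than 8 of the 16 positive controls.

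**Figure D3:**
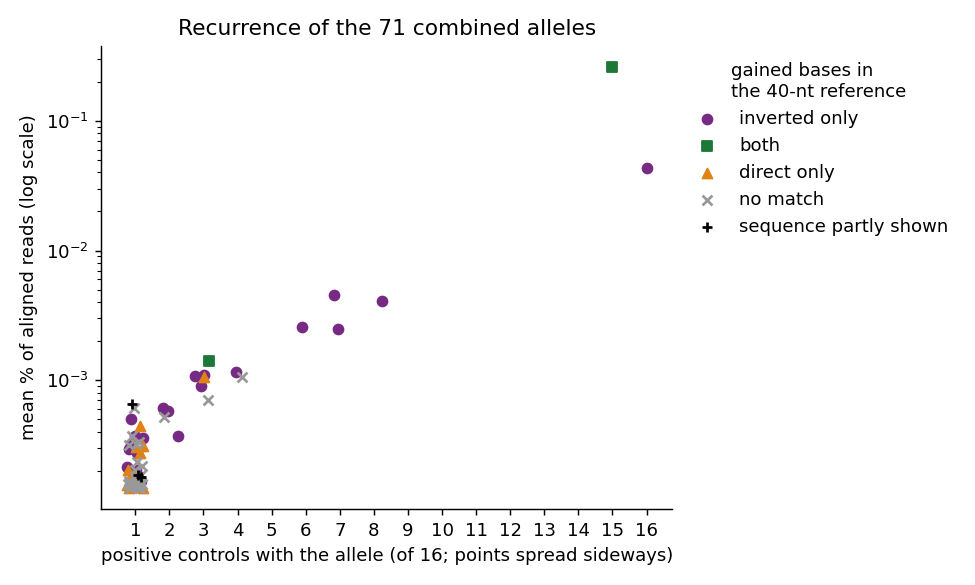
Number of positive controls in which each of the 71 combined alleles was found (x axis) against its mean share of aligned reads over the 16 positive controls (y axis, %, log scale), with the symbol showing whether the gained bases occur in the 40-nt reference. Allele 1 (15 libraries) and allele 2 (16 libraries) stand apart, and no other allele is found in more than 8.

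In the lengths as the authors' alignment gives them, combined alleles lost more than they gained. In the positive controls 98.4% ± 1.70 of the combined reads were shorter than the reference, 0.800% ± 0.991 were longer and 0.774% ± 1.00 had the same length (SD, n = 16). Net loss exceeded net gain by 97.6 percentage points (exact two-sided sign-flip test over the libraries, p = 3.05e-05, the smallest p that 16 libraries allow, adjusted p = 5.09e-05) and in 16 of 16 libraries. In this and the following tests of lengths, experiment 8 counts as a full library with its 1 combined read. Without it, net loss exceeded net gain by 97.5 percentage points (exact sign-flip test, n = 15, p = 6.1e-05). A net loss of 1 nt alone accounted for 1681 of the 1874 reads (89.7%), nearly all of them alleles 1 and 2. Net losses of 10, 8 and 7 nt followed, with 43, 36 and 33 reads. The extremes were a net loss of 50 nt, with 3 reads, and a net gain of 46 nt, with 1 read. Over the 71 distinct alleles, each counted once, 53 were shorter than the reference, 8 had its length and 10 were longer, with a median net change of −5 nt.

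The mean number of deleted bases per combined read was 3.59 ± 0.525, against 2.58 ± 0.662 for reads with a deletion and no insertion (SD, n = 16). The difference of 1.01 ± 0.753 nt (SD of the within-library differences, n = 16) was distinguishable from 0 (exact sign-flip test, p = 9.16e-05, adjusted p = 9.16e-05). It had this direction in 15 of 16 libraries, the exception being experiment 10 with 3.19 against 3.38. Deletions without an insertion are mostly of 1 nt, in 70.8% ± 7.11 of their reads (SD, n = 16). With those of 1 nt left out, deletions without an insertion lost 6.31 ± 1.43 nt, and the difference turned to −2.72 nt (exact sign-flip test, p = 3.05e-05). The combined reads were not filtered in this way. With alleles 1 and 2 left out instead, the rest of the combined alleles lost 8.85 ± 3.54 nt per read (SD, n = 15, experiment 8 having none), from 3.17 in experiment 1 to 17.5 in experiment 13.

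The mean number of inserted bases was 2.07 ± 0.312 per combined read, against 1.23 ± 0.340 per read with an insertion and no deletion (SD, n = 16). The difference was 0.84 nt (exact sign-flip test, p = 6.1e-05, adjusted p = 7.63e-05) and had this direction in 15 of 16 libraries. The exception was experiment 8 with 2 against 2.42, where the 2 comes from its 1 combined read. Of the reads with an insertion alone, 97.8% ± 0.849 gained 1 nt. With those left out, the mean of the insertions without a deletion was 9.55 ± 8.34 nt, and the difference was −7.485 nt (exact sign-flip test, p = 3.05e-05). This filter left the insertions without a deletion at 2 nt or more, while combined reads with 1 inserted base stayed in. Of the combined reads, 89.6% had 3 deleted and 2 inserted bases. The filter thus largely set the sign, and this test cannot decide which reads gained more.

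The lost bases lay right of the cut-site. Per combined read, 3.58 ± 0.527 deleted bases were right of it and 0.00226 ± 0.00500 left of it (SD, n = 16; difference of left minus right −3.58, exact sign-flip test, p = 3.05e-05, adjusted p = 5.09e-05), with the same direction in 16 of 16 libraries. Of the 68 distinct alleles whose sequence is fully shown, 3, with 1 read each, had a deleted base left of the cut-site. When the whole replaced stretch is taken in place of the deleted columns, it began right of the cut-site in 63 of the 68. The right side here holds the PAM-distal part of the sgRNA target, and the PAM lies on the left.

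**Figure D4:**
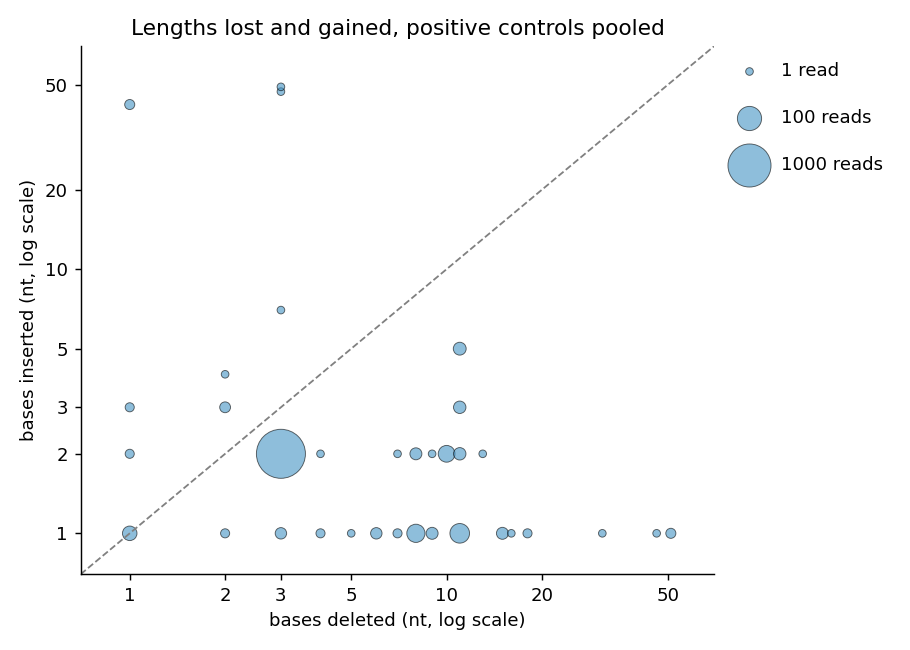
Bases deleted (x axis, nt, log scale) and bases inserted (y axis, nt, log scale) in the combined alleles of the positive controls, as the authors' alignment counts them. The area of a circle grows with the square root of its reads pooled over the 16 libraries, and the dashed line marks equal lengths. The largest circle, at 3 deleted and 2 inserted, holds alleles 1 and 2, and the circles at 42, 47 and 49 inserted bases hold 5 reads.

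Of the 165 listed alleles, 162 showed both 1 deleted and 1 inserted run. In none of these 162 did the runs lie next to each other. They were separated by 2 to 9 aligned columns, and in 112 of the 165 the insertion stood at the cut-site. In the 2-nt window tables no allele was counted with both changes, and the 1874 reads were counted there as insertions only (1777 reads), as deletions only (11 reads) or as unmodified (86 reads). Membership thus depends on the window and on where the alignment places its gaps. Each allele was therefore also written as 1 replaced stretch, from the first to the last base that differs from the reference. In this form alleles 1 and 2 lost 5 and 6 bases and gained 4 and 5.

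The inserts were then compared with the 40-nt reference. By the authors' alignment 6 distinct alleles had an insert of 4 nt or more. In 3 of them, with 42, 47 and 49 inserted bases, only 20 are shown. The other 3 had inserts of 4, 5 and 7 nt, of which 0 occurred in the reference in either orientation. The insert of 5 nt belonged to allele 9, with 8 reads in 3 positive controls, and those of 4 and 7 nt to alleles 67 and 69 with 1 read each. For these 3 inserts, 13.5% of all distinct orderings of their own bases would occur in the reference in either orientation, so 3 inserts are too few to set against shuffled ones.

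In the replaced form all 68 fully shown alleles gained at least 4 bases, with a median of 7 and a highest length of 12. The gained bases occurred in the reference in inverted orientation only in 23 alleles (33.8%), in direct orientation only in 15 (22.1%), in both in 2 (2.94%) and in neither in 28 (41.2%). The 2 alleles with both are alleles 1 and 7. Over all orderings of each allele's own gained bases, the mean share found in the reference was 2.16% for the inverted and 1.44% for the direct orientation. Both of these count orderings that match in both orientations as well, and 1.72% matched in inverted orientation only. On average 3.18% of the 40-nt windows of the 20971 nt around the gene, the site included, held the gained bases in either orientation. These shares are descriptions, since the alleles share a site and are not independent.

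The form matters for the direct matches and for the inverted ones alike. By the authors' alignment, 0 of the 3 fully shown inserts of 4 nt or more matched in either orientation. In each of the 15 alleles with a direct match alone, 1 base had been inserted by the alignment, and the gained stretch repeated reference bases that stayed between the insertion and the deletion. Among alleles 1 to 10, alleles 3, 4, 6 and 10 had an inverted match alone and also had 1 base inserted by the alignment. Their gained bases in the replaced form numbered 6 to 9. Some alleles with a lower mean share and an inverted match alone had 1 inserted base as well. A G inserted at the cut-site together with a separate deletion of 1 to 51 nt was found in 14 alleles, with 25 reads in 10 positive controls. Allele 7, with 15 deleted bases, and allele 12, with 1 deleted base, were the most frequent of these, with 5 reads each. Allele 12 was picked with its values known.

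The inverted matches were the longer ones. Of the 23 alleles with at least 8 gained bases, 13 matched in inverted orientation only, 1 in direct orientation only and 9 in neither, while the orderings of the same bases matched in 0.0388% for the inverted and 0.0354% for the direct orientation. By contrast, the 4 gained bases of allele 1 tell little, since 33.3% of their 12 orderings and 21.9% of the 40-nt windows match. The 5 gained bases of allele 2 matched in inverted orientation only, as did 3.33% of their 30 orderings, and 5.43% of the windows hold them. With alleles 1 and 2 left out, the gained bases matched in inverted orientation only in 22 of 66 alleles and 128 of 197 reads (65.0%), against 15 alleles and 22 reads in direct orientation only. The reference itself holds palindromes of 6 nt at −1 to 5 and at 12 to 17, where both orientations give the same match. Palindromes of 4 nt also lie at 5 to 8 and at 7 to 10.

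In 19 of the 23 alleles with an inverted match alone, the gained bases held the reverse complement of positions 6 to 10. Within that stretch, positions 7 to 10 are a palindrome of 4 nt, which reads the same in both orientations. The 19 alleles had 121 reads in 14 positive controls, gained 6 to 12 bases and had 12 to 19 bases replaced. Alleles 3 to 6 and 8 to 10 belong here. Their summed share was 0.0210% ± 0.0241 (SD, n = 16), with a median of 0.0148%, the highest value in experiment 3 (0.0965%, 36 reads in 11 alleles) and 0 reads in experiments 1 and 8. The remaining 4 of the 23 alleles, among them allele 2, had 248 reads. Without the condition of an inverted match alone, 25 alleles held the reverse complement of positions 6 to 10 in their gained bases. They had 133 reads in 15 positive controls.

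The inverted stretch in the read could be followed beyond the gained bases. In the 23 alleles it was 6 to 19 nt long, with a median of 10, and its source lay between −3 and 16. The source overlapped the replaced bases in 23 of 23 alleles and lay wholly within them in 13. Among alleles 1 to 10, allele 9 had the longest stretch, 19 nt from −3 to 16. Allele 8 followed with 17 nt, allele 10 with 16 nt and allele 6 with 15 nt, each from −3. In those 4 alleles the stretch ran into the retained copy of the inverted repeat described above. Some alleles with a lower mean share among the 23 did so as well, with up to 18 nt from −3 to 15. In allele 5 it covered positions 3 to 13, in allele 4 positions 4 to 12 and in allele 3 positions 6 to 12. Of the 28 alleles with no match of the whole gained sequence, 4 still held an inverted stretch of at least 7 nt, such as allele 11 with 8 nt and 5 reads, named after its values were seen.

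**Figure D5:**
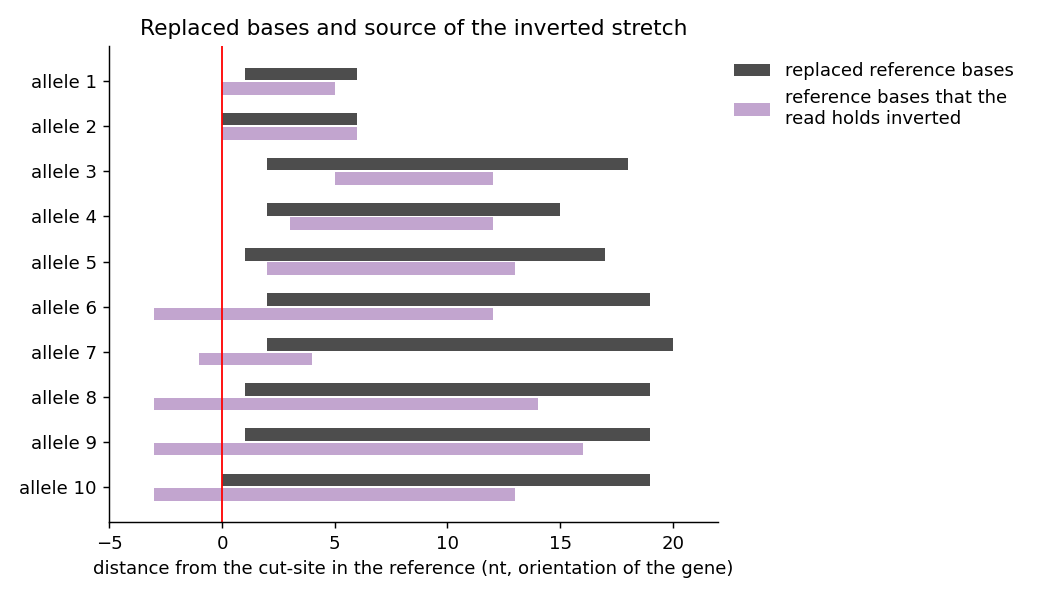
For alleles 1 to 10 (rows), the replaced reference bases (dark bars) and the reference bases whose reverse complement the read holds over its gained bases (light bars), by distance from the cut-site along the gene (x axis, nt, the line marks the cut-site). The light bars of alleles 6, 8, 9 and 10 begin at −3, and the sources of alleles 3, 4 and 5 lie within the replaced bases.

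Libraries with more other deletions and insertions did not clearly hold more combined reads. Across the 16 positive controls, the share of combined reads and that of the other reads with a deletion or an insertion had a Pearson r of 0.273 (permutation p = 0.313, adjusted p = 0.520) and a Spearman rho of 0.382 (permutation p = 0.147, adjusted p = 0.392; all 8 correlations were adjusted together by Benjamini-Hochberg). The 12 forward libraries gave r = 0.103 (permutation test, p = 0.758, adjusted p = 0.758). Their rho was 0.266 (permutation test, p = 0.405, adjusted p = 0.540). Experiments 5 and 10 lay farthest from the median share of other reads, and leaving both out gave r = 0.167 (permutation test, p = 0.580, adjusted p = 0.663). Leaving out experiment 8 raised r to 0.586 (permutation test, p = 0.0207, adjusted p = 0.106). The rho was then 0.579 (permutation test, p = 0.0264, adjusted p = 0.106), so this 1 library decides the value. The 4 reverse libraries are too few for a correlation.

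As a share of the reads with a deletion or an insertion, combined reads made up 0.867% ± 0.330 in the positive controls (SD, n = 16), and 0.925% ± 0.246 without experiment 8 (SD, n = 15). They made up 0.857% ± 0.380 in the 12 libraries with forward tables and 0.898% ± 0.117 in the 4 with reverse tables. The difference of −0.0404 percentage points was not distinguishable from 0 (exact permutation test, 4 against 12 libraries, p = 0.892).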

How the data were processed

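The authors sorted the amplicon reads into alleles with CRISPResso2, in windows of 2 and 20 nt, and its version and parameters are not given in the sources used here. Where such an aligner places gaps decides whether a read counts as combined. The deposited tables, 64 in all, give each allele's read count without normalization, its numbers of deleted, inserted and substituted bases as counts, and its percent of the aligned reads as the authors calculated it. Percentages here were calculated again from the counts.

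Tables of 4 experiments were reverse complemented to match the gene's strand. Deletions that reach beyond the 40 columns were completed from the published sequence of the region by the deposited number of deleted bases, and inserts that do were left out of the comparison with the reference. Alleles were compared by place, lost and gained bases, with substitutions kept only between the gaps or within 3 columns of them. For the replaced stretch, matching bases were removed from the right end first. Shuffled inserts were replaced by all distinct orderings of an insert's bases, counted exactly.

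Libraries were the replicates. Groups were compared by permutation tests (100000 resamples, seed 1) and exact tests, and libraries against 0 by exact sign-flip tests over 65536 sign patterns, all two-sided with a threshold of 0.05. Intervals are 95% Wilson intervals. Each experiment took 1 female's eggs for both of its controls, which pairs them by experiment number. Paired libraries deviated from their group means with r = 0.135 (n = 16, permutation p = 0.560), with 15 of the 16 negative controls at 0. Libraries had 17475 to 58396 aligned reads. Chi-square per degree of freedom was 0.682 between the negative controls of experiments 2 and 7 and 0.858 between those of experiments 11 and 12. Both pairs thus differed by less than the sampling noise. They were kept apart, since the labels give them as separate experiments, and a shared source was not tested. Counting each such pair as 1 sample was an alternative.

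The alleles named were the 10 with the highest mean share, those found in all positive controls and the 5 most frequent with an insert of at least 4 nt. Alleles 11, 12 and 13 and the inverted form were added with their values known. The members, rules and tests were chosen with earlier results of these data known. Recovery of lost and gained bases was tested on simulated alleles. Of these, 1793 of 1793 within the 40 columns and 207 of 207 reaching beyond them were recovered. The simulated alleles had no substitutions and always had the insertion left of the deletion. The rule for substitutions was thus not tested, and 84 of the 165 listed alleles had a substitution in the scored window. Tests were run with SciPy 1.17.1 and tables handled with pandas 2.3.3 and NumPy 2.4.6 under Python 3.11.15, and figures were drawn with Matplotlib 3.10.9.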

Additional observations from a re-analysis of the deposited data

How the results depend on the processing

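The difference in combined reads between positive and negative controls kept its direction and side of the threshold in 28 of 30 settings. With the experiment as a replicate block it was 0.339 percentage points (exact sign-flip test, n = 16 pairs, p = 3.05e-05). It was 0 in the 2-nt window tables and 0 when the deletion and the insertion had to lie next to each other, since no allele with both runs shown then remained, and the other tests could not be run there. In the 4 reverse experiments alone the exact sign-flip test cannot go below p = 0.125. There, net loss minus net gain was 97.6 percentage points, the difference in bases lost 1.57 nt, that in bases gained 0.912 nt, and bases lost left minus right −3.49 nt. The sign turned when changes of 1 nt were left out of the reads with a deletion or an insertion alone. The values were then −2.72 nt for bases lost and −7.485 nt for bases gained, with all combined reads kept. Inserts of 4 nt or more found in the reference were 0% of 3 by the alignment and 58.8% of 68 in the replaced form. These sets differ, since the replaced form also counts reference bases that the alignment leaves between its gaps as gained. At least 5 reads left no insert of 4 nt or more to compare.
The count of combined alleles found in all positive controls was 1. It was 0 with at least 2 reads, 0 with at least 5 reads, 0 with the listed sequence taken whole and 0 with adjacent gaps, and 2 for alleles found in at least 12.
Leaving out each experiment gave 0.322 to 0.361 percentage points for combined reads, 97.5 to 98.0 for net loss minus net gain, 0.931 to 1.09 nt for bases lost, 0.759 to 0.924 nt for bases gained and −3.62 to −3.50 nt for left minus right. It gave 1 to 2 alleles found in all positive controls, with 2 only without experiment 8. The correlation with other reads ran from 0.158 to 0.586, with 0.586 without experiment 8. The difference between forward and reverse tables ran from −0.0922 to 0.0368 percentage points, and it was above 0 without experiment 7 (3.08e-05) and without experiment 8 (0.0368). Leaving out alleles 1 and 2, chosen after seeing the data, gave 0.0366 percentage points for combined reads, 74.4 for net loss minus net gain, 6.23 nt for bases lost, 1.53 nt for bases gained and −8.76 nt for left minus right, each on the same side of the threshold. The 1.53 nt rests on experiment 10, which had 3 reads of a 42-nt insert. Without it the difference was 0.764 nt (exact sign-flip test, n = 14, p = 0.00427).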

Other observations

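The 3 inserts that are only partly shown were found in 1 positive control each, with 47 inserted and 3 deleted bases in experiment 2 (1 read), 42 and 1 in experiment 10 (3 reads), and 49 and 3 in experiment 14 (1 read). The 20 shown bases of each occurred 0 times in the 20971 nt of the Mr-cofilin region in either orientation. The 3 reads of experiment 10 raised its mean of inserted bases to 3.16 per combined read, the highest of the 16 positive controls.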
